A study of Phrynocephalus vlangalii with 2 samples.

Results

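The subunits of respiratory complexes II to V and their shuttle protein cytochrome c were described in 2 pools of RNA from the toad-headed lizard Phrynocephalus vlangalii. Members were the rows of the single deposited table whose annotation text names succinate dehydrogenase (complex II), ubiquinol-cytochrome c reductase (complex III), cytochrome c oxidase (complex IV), the F-type ATPase (complex V) or cytochrome c itself. They numbered 98 of 58458 assembled genes and carried 44 annotation names, 40 of them subunits, 3 assembly factors of complex IV and 1 cytochrome c. All 98 passed the filter on low values, a sum of at least 10 reads over both libraries. The groups were adults of the Madoi population and adults of the Maqu population, with 1 library each. Each library held RNA of liver, lung, heart and muscle. The labels give neither the number of animals nor the proportions of the tissues, and no treatment. Per the series title, the study asks about adaptation to high altitude. The labels give no altitude for either population.

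The respiratory chain in the inner mitochondrial membrane passes electrons from nutrients to oxygen and pumps protons outward, and the F-type ATPase uses their return to make ATP. Complex II links the citric acid cycle to ubiquinone, complex III moves electrons from ubiquinone to cytochrome c, and complex IV hands them to oxygen. Most subunits are encoded in the nucleus, and a few in the mitochondrial DNA, so that the complexes are built from the products of both genomes. Heart and muscle are known for large amounts of these complexes.

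Estimated reads summed to 63636521 for Madoi and 66401051 for Maqu. Without replicates no spread within a population can be had, so no test was made and each ratio compares these 2 libraries. Ratios are log2 of Madoi over Maqu after scaling by TMM, a trimmed mean of ratios over all assembled genes. Brackets below hold exact 95% counting intervals (Clopper-Pearson), which cover counting error only, unless they are named a binomial interval. A name was called higher or lower where it differed at least 2-fold with an interval excluding equality. In a bulk pool, fewer cells of a type and less RNA per cell cannot be told apart.

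The members fell into 3 kinds of copies, visible in the plot of reads per copy. The first kind, read in both libraries, held 55 copies with ratios from -1.92 to 0.62. The second, scarcely read in Maqu, held 10 copies with 1 to 6 reads there and ratios from 9.16 to 13.15. The third held 33 copies with 0 reads in Maqu. Of the annotated assembled genes of the series, 20.2% had 0 reads in Maqu and 22.2% had 0 or were scarcely read, while 17.7% of all assembled genes had 0. No member had 0 reads in Madoi, which 0.0691% of annotated assembled genes had. The copies with 0 reads in Maqu were kept out of the sums and are described on their own, since they may not be lizard genes. Their organism was not tested.

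**Figure D1:**
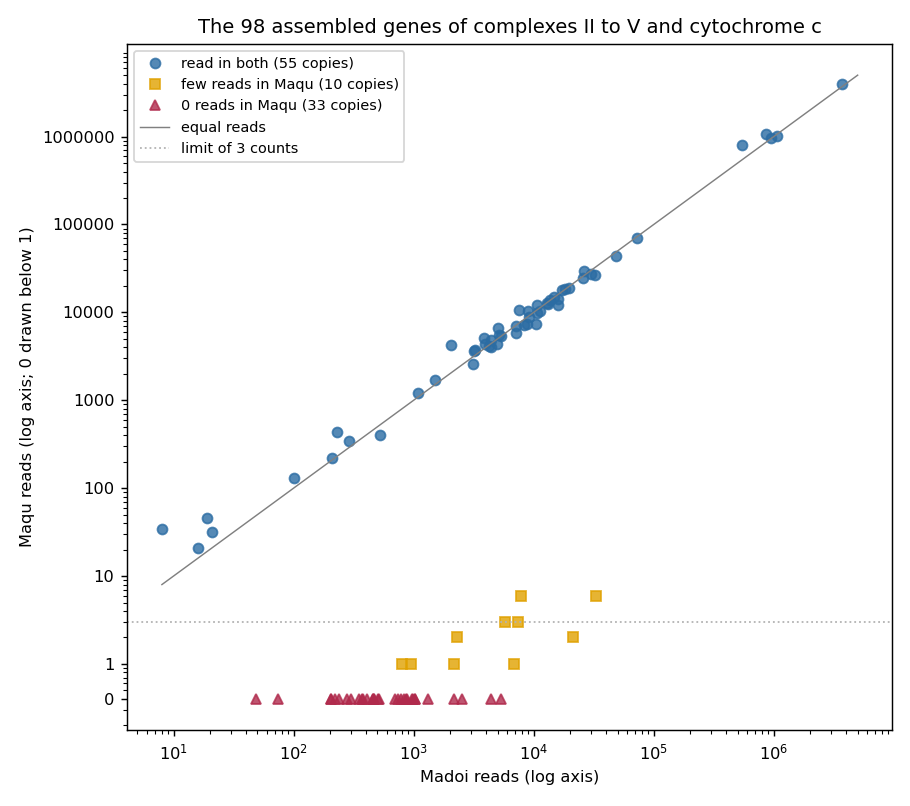
Reads of each of the 98 assembled genes in Madoi (x axis) and Maqu (y axis), both on log axes, with copies at 0 reads drawn below 1; the solid line marks equal reads and the dotted line the limit of 3 counts. The 55 copies read in both libraries have log2 ratios from -1.92 to 0.62. The lowest is a copy of ATPase subunit b with 8 reads in Madoi against 34 in Maqu. The other 43 copies have at most 6 reads in Maqu.

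Of the 40 subunit names, 0 were called higher and 0 lower, against 5.89% higher and 7.15% lower among all 4702 annotation names summed in the same way. Among the 3407 names with at least 1000 reads, 158 were higher and 140 lower. Whether 0 of 40 differs from these shares was not tested. The subunits lay close to equality. A total of 37 of the 40 (92.5%) had a ratio within 0.5 of 0, against 65.5% of all names and 72.1% of the names with at least 1000 reads. The median was 0.14 over the 40 subunits, 0.0012 over all names and 0.03 over the names with at least 1000 reads. A ratio above 0 was found in 30 of the 40 (75%), against 50.2% of all names and 53.8% of the names with at least 1000 reads. By complex the median was 0.03 for the 4 names of complex II, with a range from -0.09 to 0.20. It was 0.10 for the 10 names of complex III, with a binomial interval of the median from -0.44 to 0.40. It was 0.14 for the 12 names of complex IV (binomial interval 0.04 to 0.29). Complex V had 0.20 over its 14 names (binomial interval -0.02 to 0.47). A binomial interval of a median rests on the spread among names. Names are not replicates, so it does not cover differences between animals or libraries. With the scarcely read copies left out as well, the medians of complexes IV and V were 0.09 and 0.16, and those of complexes II and III did not move.

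**Figure D2:**
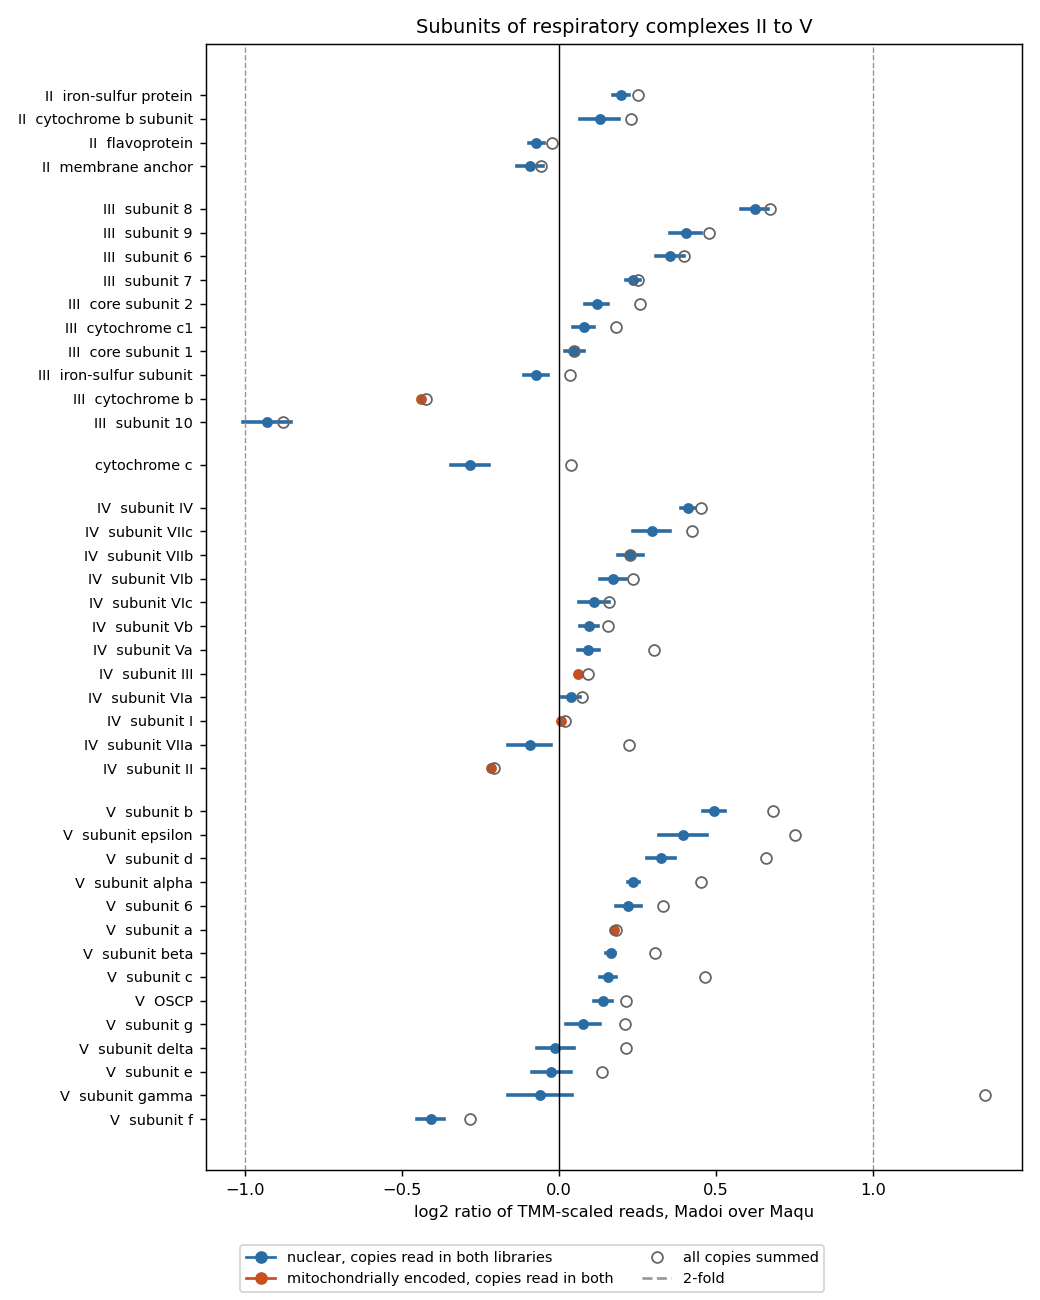
Log2 ratio of Madoi over Maqu for each subunit name and cytochrome c, grouped by complex; filled points with bars are the sum of copies read in both libraries with its 95% counting interval, blue for nuclear and orange for mitochondrially encoded, and open circles are the sum of all copies. All filled points lie between -0.93 and 0.62, and the open circle of ATPase subunit gamma lies at 1.36.

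Complex II, the only one of the chain that is also an enzyme of the citric acid cycle, had its reads nearly evenly split. The flavoprotein subunit, which oxidises succinate, had 26155 reads in Madoi against 29693 in Maqu, a ratio of -0.07 (-0.10 to -0.05). The iron-sulfur protein, which takes the electrons on from it, had 25869 reads in Madoi against 24365 in Maqu, a ratio of 0.20 (0.17 to 0.22). These catalytic subunits therefore lay on opposite sides of equality. The anchors in the membrane did so too. The cytochrome b subunit had 4237 reads in Madoi against 4180 in Maqu, a ratio of 0.13 (0.07 to 0.19). The membrane anchor subunit had 8939 reads in Madoi against 10279 in Maqu, a ratio of -0.09 (-0.13 to -0.05). On the per-length scale of the authors' RPKM the iron-sulfur protein stood at 341 in Madoi and 309 in Maqu, above the other 3 subunits, which ranged from 78.1 to 145 in Madoi and from 74.2 to 158 in Maqu.

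Ratios in complex III ran from -0.93 to 0.62, and its subunits of lowest and highest ratio were both small nuclear subunits. Subunit 10, a small protein of the membrane part, had 2053 reads in Madoi against 4222 in Maqu, the lowest ratio of all subunits at -0.93 (-1.01 to -0.85). This ratio was just short of the 2-fold threshold. Subunit 8, known in mammals as a ubiquinone-binding protein, had 10452 reads in Madoi against 7326 in Maqu, a ratio of 0.62 (0.58 to 0.67). Subunit 9 had 7181 reads in Madoi against 5859 in Maqu, a ratio of 0.40 (0.35 to 0.45). Subunit 6, the acidic hinge protein beside cytochrome c1, had 8775 reads in Madoi against 7412 in Maqu, a ratio of 0.35 (0.31 to 0.40). With subunit 7 at 0.24, 4 of the 5 small subunits had more scaled reads in Madoi, as had 50.2% of all names. The subunit 7 copy was an assembled gene of 30 transcripts, 4099 bases long. Those of the other small subunits had 1 transcript each, of 451 to 608 bases.

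The larger nuclear subunits of complex III were nearly level. Core subunits 1 and 2, which face the matrix, stood at 0.05 and 0.12, the first at -0.00023 when scaled by library totals. The electron carriers follow. Cytochrome c1 had 13560 reads in Madoi against 13859 in Maqu, a ratio of 0.08 (0.04 to 0.11). The iron-sulfur subunit had 10577 reads in Madoi against 12020 in Maqu, a ratio of -0.07 (-0.11 to -0.04). Cytochrome b, the only mitochondrially encoded subunit of the complex, had 542895 reads in Madoi against 794082 in Maqu in its main copy. Its ratio of -0.44 (-0.44 to -0.43) was the lowest of the mitochondrially encoded names here. In RPKM, subunit 10 was at 68.3 in Madoi and 135 in Maqu, while the other 8 nuclear subunits ranged from 120 to 355 in Madoi and from 115 to 240 in Maqu.

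Cytochrome c, the soluble protein that carries electrons between complexes III and IV, had 3874 reads in Madoi against 5090 in Maqu in its only copy read in both libraries. The ratio was -0.28 (-0.34 to -0.22). By the authors' RPKM the levels were 78.8 in Madoi and 89.1 in Maqu, and the ratio was -0.18 before scaling by TMM. Madoi was lower by both measures, which rest on the same reads. With its other copy, which had 966 reads in Madoi against 0 in Maqu, the ratio was 0.04.

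In complex IV all 9 nuclear subunits lay on the Madoi side, except VIIa without its scarcely read copy and VIa by library totals. Of all names, 50.2% lay on that side. The mitochondrially encoded core lay around equality. Subunit I, which holds the site where oxygen is reduced, had 3691651 reads in Madoi against 3962977 in Maqu in its main copy, the most of any member. Its ratio was 0.0078 (0.0057 to 0.0098), and -0.03 by library totals with the scarcely read copy included. Subunit II, which takes electrons from cytochrome c, had 857519 reads in Madoi against 1076410 in Maqu, a ratio of -0.22 (-0.22 to -0.21). Subunit III had 942846 reads in Madoi against 975222 in Maqu, a ratio of 0.06 (0.06 to 0.07). These 3 neighbours in the mitochondrial core thus spanned a range of ratios from -0.22 to 0.06.

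Subunit IV, the regulatory subunit that binds ATP in mammals, had 32452 reads in Madoi against 26350 in Maqu, a ratio of 0.41 (0.39 to 0.43). Subunit VIIc had 4965 reads in Madoi against 4368 in Maqu, a ratio of 0.29 (0.24 to 0.35). Subunit Va had 14764 reads in Madoi against 14932 in Maqu, a ratio of 0.09 (0.06 to 0.13), which became 0.30 with its scarcely read copy. Of the other nuclear subunits, VIIb stood at 0.23, VIb at 0.17, VIc at 0.11 and Vb at 0.10. Subunit VIIa stood at -0.09 from its copy read in both libraries and at 0.22 with its scarcely read copy. Subunit VIa had a pair of copies read in both libraries that went apart. The copy with more reads had 13239 in Madoi against 12583 in Maqu, a ratio of 0.18 (0.15 to 0.22). The other had 5077 in Madoi against 6676 in Maqu, a ratio of -0.28 (-0.34 to -0.23). Mammals have a heart and muscle form and a liver form of subunit VIa, but the annotation text does not say which form a copy is. Their sum had a ratio of 0.04, and -0.01 by library totals.

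Complex V had 10 of its 14 subunits (71.4%) on the Madoi side, against 50.2% of all names. The catalytic head is made of subunits alpha and beta. Subunit alpha had 48306 reads in Madoi against 44234 in Maqu, a ratio of 0.24 (0.22 to 0.26), and subunit beta had 72496 in Madoi against 69799 in Maqu, a ratio of 0.16 (0.15 to 0.18). With their scarcely read copies, of 7810 and 7411 reads in Madoi, these became 0.45 and 0.31. The rotating central stalk is made of gamma, delta and epsilon. Gamma had 1508 reads in Madoi against 1697 in Maqu, a ratio of -0.06 (-0.16 to 0.04), and delta 4414 in Madoi against 4802 in Maqu, a ratio of -0.01 (-0.07 to 0.05). Both intervals held equality. Epsilon had 3114 reads in Madoi against 2555 in Maqu, a ratio of 0.40 (0.32 to 0.47).

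The peripheral stalk keeps the head from turning, and its 4 members all had more scaled reads in Madoi. Subunit b had 15887 reads in Madoi against 12149 in Maqu in its main copy. Summed with a short copy of another KEGG orthologue, its ratio of 0.49 (0.46 to 0.53) was the highest of the complex among sums of copies read in both libraries. The main copy alone had a ratio of 0.50 (0.46 to 0.53). Subunit d had 8387 reads in Madoi against 7229 in Maqu, a ratio of 0.32 (0.28 to 0.37), and 0.66 with its scarcely read copy, which had 2183 reads in Madoi against 1 in Maqu. Subunit 6, also called coupling factor 6 and encoded in the nucleus, stood at 0.22 and the oligomycin sensitivity conferral protein at 0.14. The proton channel is made of subunit a and a ring of subunits c. Subunit a, mitochondrially encoded, had 1057796 reads in Madoi against 1010098 in Maqu, a ratio of 0.18 (0.17 to 0.18).

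In vertebrates several genes encode the same mature protein of subunit c, and whether the copies here are such genes was not tested. Subunit c had 3 copies read in both libraries. They had 15815, 5170 and 3196 reads in Madoi and 14280, 5460 and 3684 in Maqu, with ratios of 0.26, 0.03 and -0.09. The copy with most reads thus lay on the Madoi side, and their sum stood at 0.16 (0.13 to 0.18), or 0.47 with the scarcely read copy. Among the small accessory subunits of the membrane part, subunit f had the lowest ratio of the complex. It had 7493 reads in Madoi against 10632 in Maqu in its main copy and 228 in Madoi and 433 in Maqu in another, with ratios of -0.39 and -0.81. Both copies had fewer reads in Madoi, and their sum stood at -0.41 (-0.45 to -0.37). Subunit e had 3959 reads in Madoi against 4345 in Maqu, a ratio of -0.02 (-0.09 to 0.04), and subunit g stood at 0.08.

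The nuclear and the mitochondrially encoded subunits were then set beside each other. The median ratio was 0.17 over 35 nuclear subunits (binomial interval 0.08 to 0.29), and 27 of the 35 lay above 0, or 25 by library totals. With TMM scaling this share was 77.1%, against 50.2% of all names and 53.8% of those with at least 1000 reads. The median was 0.02 over 5 mitochondrially encoded subunits, with a range from -0.44 to 0.18. Of these 5, 3 lay above 0, or 2 by library totals. The ranges of both sets overlapped. Without the scarcely read copies the medians were 0.13 for nuclear and 0.0077 for mitochondrially encoded subunits. In reads, the copies of the 5 mitochondrially encoded names read in both libraries made up 11.1% of Madoi reads and 11.8% of Maqu reads. The 35 nuclear names made up 0.822% of Madoi and 0.763% of Maqu. Complex IV alone held 8.82% of the Madoi reads and 9.23% of the Maqu reads, nearly all in its 3 mitochondrially encoded subunits.

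Per length, the mitochondrially encoded subunits stood far above the nuclear ones in both libraries. Their median was 19820 RPKM in Madoi and 19741 in Maqu. The median of the nuclear subunits was 207 in Madoi and 198 in Maqu, which gives a mitochondrial level over the nuclear one of 95.8 in Madoi and 99.5 in Maqu. Among nuclear subunits the highest level was that of complex IV subunit IV, at 660 RPKM in Madoi, and that of subunit Vb, at 608, in Maqu. ATPase beta followed at 619 in Madoi, behind subunit Vb at 625, and was at 574 in Maqu. The lowest was ATPase gamma, at 6.87 RPKM in Madoi and 7.45 in Maqu, below every other nuclear subunit of the complex, the next being subunit e at 74.6 in Madoi and 78.8 in Maqu. The gamma copy was 3330 bases long, the longest of complex V. Whether it holds all lizard transcripts of gamma was not tested. Within complex IV, subunit VIIa was lowest, at 47.5 in Madoi and 52.7 in Maqu.

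**Figure D3:**
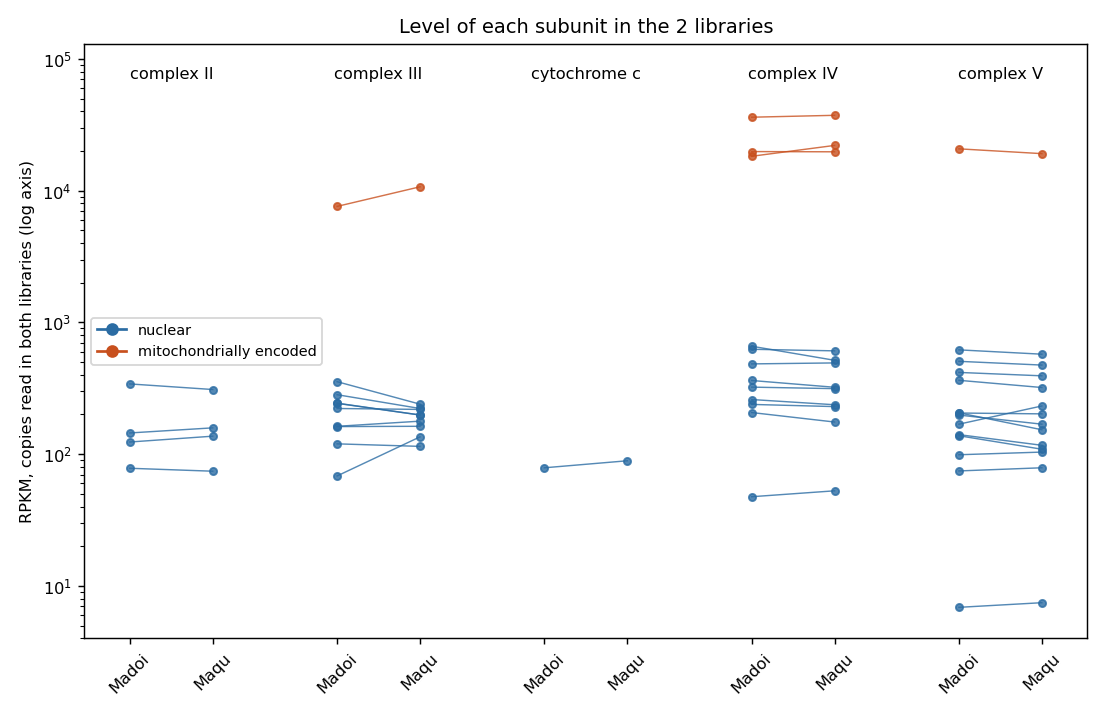
Level of each subunit in RPKM on a log axis, Madoi left of Maqu in each pair, summed over copies read in both libraries; each line joins the values of 1 name, orange for mitochondrially encoded and blue for nuclear. The 5 mitochondrially encoded subunits lie between 7602 and 37359 RPKM, and the nuclear ones between 6.87 and 660.

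A second copy of nearly every subunit was read in Madoi and not, or scarcely, in Maqu. Of the 41 names without the assembly factors, 39 had such a copy beside one read in both libraries, or 95.1%. Over all annotation names this was 34.5%, and 42.6% for names with at least 1000 reads in copies read in both libraries. The exceptions were core subunit 1 of complex III and subunit VIIb of complex IV. In complex I, the entry point of the chain, 34 of 41 names had one. So did 8 of 8 assembly factors and 3 of 3 names of the electron transfer flavoprotein and its dehydrogenase. It was 3 of 5 for ubiquinone synthesis, 2 of 3 for exchange with the cytosol and 1 of 4 for regulators of mitochondrial gene expression. All 5 mitochondrially encoded names were among the 39. In 33 of the 39 names the second copy was shorter than the first. The table gave a best matching protein for both copies in 28 names, and it was the same protein in 1, subunit 7 of complex III.

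Among the 33 copies with 0 reads in Maqu, complex II had 5 with 2493 reads in Madoi, complex III 9 with 9979, complex IV subunits 5 with 2354, and complex V 10 with 14295. Cytochrome c had 1 with 966 reads and the assembly factors 3 with 476. Cytochrome b had the most, at 5354 reads in Madoi against 0 in Maqu. This was 1926-fold above a limit of 3 counts in the Maqu library, and its counting interval began at 1566-fold. ATPase subunit a followed at 4409 reads (1586-fold above this limit, interval from 1289-fold) and subunit gamma at 2522 (907-fold, interval from 737-fold). Next came subunit b at 2189 (788-fold, interval from 640-fold) and core subunit 2 of complex III at 1325 (477-fold, interval from 387-fold). For gamma the 2522 reads exceeded the 1508 Madoi reads of the copy read in both libraries. With all copies summed gamma was called higher, at 1.36, as the only subunit, while 0 subunits were lower. Under this rule 11.6% of all names were higher and 6.33% lower.

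The 10 scarcely read copies together had 88660 reads in Madoi against 26 in Maqu. The second copy of cytochrome c oxidase subunit I had 33254 reads in Madoi against 6 in Maqu, 5506-fold higher with a counting interval from 2748 to 16301. That of subunit III had 21280 in Madoi against 2 in Maqu, a ratio of 13.15 (11.63 to 16.53). The remaining ones were the second copies of subunits II, IV, Va and VIIa of complex IV and of alpha, beta, c and d of the ATPase. None of the 10 had under 805 reads in Madoi, while the copies at 0 in Maqu had from 49 to 5354. The call for all of these copies therefore rests on reads of 1 library.

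**Figure D4:**
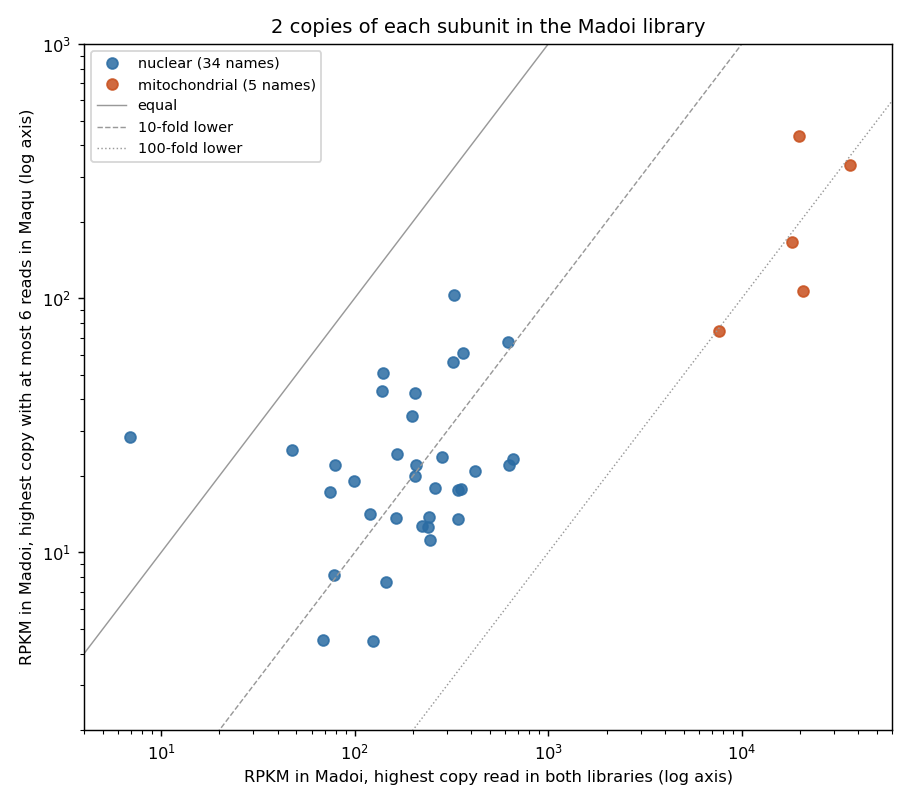
RPKM in the Madoi library of the highest copy with at most 6 reads in Maqu (y axis) against that of the highest copy read in both libraries (x axis), on log axes, for 39 names; lines mark equality and 10-fold and 100-fold lower levels. The 5 mitochondrially encoded names lie near the 100-fold line, nuclear names on both sides of the 10-fold line, and ATPase gamma above equality.

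The second copies made up different shares of a name's level. As a share of the RPKM of both copies in Madoi, the second copy held from 0.512% to 2.15% in the 5 mitochondrially encoded names and from 3.40% to 80.5% in the 34 nuclear ones. The 80.5% was that of ATPase gamma, and the next highest was subunit VIIa of complex IV at 34.8%. The median share was 4.42% over the 4 nuclear names of complex II, 5.82% over 8 of complex III, 5.73% over 8 of complex IV and 16.2% over 13 of complex V. For cytochrome c it was 21.8%. Among the second copies alone, the median RPKM in Madoi was 167 for mitochondrially encoded and 20.0 for nuclear names, a ratio of 8.34, where the copies read in both libraries had 95.8. Complex V stood first among nuclear second copies, with a median of 34.4 RPKM, against 22.0 for complex IV, 13.7 for complex III and 10.8 for complex II.

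A further 5 copies had few reads in both libraries and fewer in Madoi. Short copies of subunit I had 100 and 16 reads in Madoi and 130 and 21 in Maqu. One of subunit III had 19 in Madoi and 46 in Maqu, one of cytochrome b 21 in Madoi and 32 in Maqu, and one of ATPase subunit b 8 in Madoi and 34 in Maqu. At the level of single copies those of subunit III at -1.15 (-2.02 to -0.37) and subunit b at -1.92 (-3.30 to -0.84) were called lower, the only such calls among the 55 copies read in both libraries. Of the assembled genes chosen by the same rule, 13.2% were called lower. That rule was estimated reads above 0 in Maqu, a ratio under 5 and a sum of at least 10 reads. None of the 55 was called higher, against 12.0% of the assembled genes chosen in this way. The short copy of subunit b carried the KEGG orthologue K02109, where the other copies of subunit b carried K02127. It was nonetheless part of the sum for subunit b given above. Whether these 5 copies are lizard genes was not tested.

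Assembly factors and other genes of the pathway were counted as lists. The 3 assembly factors of complex IV among the members stood at 0.47 (0.28 to 0.66) for the copper chaperone XVII, with 520 reads in Madoi against 405 in Maqu, and at 0.95 with its copy at 0 reads in Maqu. They stood at 0.21 for XV, which acts in haem synthesis, and at -0.04 for XI, which delivers copper. With 5 further assembly names the list counted 8 names, of which 0 were higher and 0 lower, around a median of 0.14. Within it, ATP synthase F1 assembly factors 1 and 2, which hold subunits beta and alpha before assembly, went apart at 0.56 and -0.43. In complex I, 1 of 41 names was higher and 1 lower, against 5.89% and 7.15% of all names. Its median was 0.09. Its 36 nuclear names had a median of 0.17 and its 5 mitochondrially encoded names -0.02. The electron transfer flavoprotein and its dehydrogenase stood at a median of 0.20 in 3 names, and -0.37 without the scarcely read copy of the alpha subunit, with 0 called. Ubiquinone synthesis stood at 0.18 in the 4 of 5 names left after the copies with 0 reads in Maqu were set aside, with 0 called.

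Of all 4702 names, 5.89% were called higher and 7.15% lower. Proteins that exchange ADP, ATP and ions with the cytosol gave 1 higher of 3 names. This was the adenine nucleotide translocator, at 1.47 and at -0.0036 without its scarcely read copy. The voltage-dependent anion channel, the pore of the outer membrane, stood at 0.35, or 0.18 without its scarcely read copy, and uncoupling protein 1 at -0.46. Of 4 regulators of mitochondrial gene expression 1 was lower, the coactivator PPAR gamma coactivator 1 alpha at -1.66 (-1.96 to -1.38), with 130 reads in Madoi against 444 in Maqu. The mitochondrial transcription factor A, which packs and helps to transcribe the mitochondrial DNA, had 990 reads in Madoi against 836 in Maqu and stood at 0.35, or at 1.26 with all copies, which had 1851 reads in Madoi against 836 in Maqu. Nuclear respiratory factor 1 stood at 0.44 and the alpha subunit of GA-binding protein at -0.35. The regulators therefore lay on both sides.

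Some markers of liver, heart and lung were called higher or lower, but none of fast muscle or of slow muscle or ventricle. Among all names, 5.89% were called higher and 7.15% lower. Of the markers chosen for each tissue, 8 of 9 were matched for liver, 6 of 9 for heart, 4 of 6 for fast muscle, 3 of 3 for slow muscle or ventricle and 3 of 5 for lung, and no matched marker was at 0 in either library. Summed reads here cover all copies, while the medians leave out the copies with 0 reads in Maqu. The sums were 105571 in Madoi and 188010 in Maqu for liver, with a median ratio of -0.65, 1 higher and 2 lower. Liver markers ran from -2.39 for 4-hydroxyphenylpyruvate dioxygenase to 1.23 for apolipoprotein A-I, and tryptophan 2,3-dioxygenase stood at -1.17. Of the liver markers, antithrombin III had 20432 reads in Madoi over all copies, and 12499 in those read in both libraries. In Maqu it had 21664 and 21663. Heart markers summed to 80761 in Madoi and 51130 in Maqu (median 0.58, 2 higher), mostly cardiac troponin T with 71462 in Madoi and 41675 in Maqu. They went both ways. T-box protein 5 stood at 1.23, Nkx-2.5 at 1.13, cardiac troponin T at 0.89 and ryanodine receptor 2 at 0.26. Natriuretic peptide A stood at -0.09 and phospholamban at -0.42. Fast muscle had 362340 in Madoi and 370569 in Maqu (median 0.05), slow muscle or ventricle 42135 in Madoi and 35857 in Maqu (median 0.10). Lung had 15851 in Madoi and 26139 in Maqu (median -1.12, 2 lower). The part of these differences in the ratios of the respiratory subunits was not tested.

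The authors' deposited table marked 42 of the 98 members significant, 32 of the copies with 0 reads in Maqu and all 10 scarcely read ones, against 15.5% of annotated and 10.4% of all assembled genes. None of the 55 copies read in both libraries was marked. The authors' deposited table gave 7 of these 55 an FDR of at most 0.05, namely cytochrome b and the main copies of subunits I, II and III of complex IV, subunits 8 and 10 of complex III and ATPase subunit f. Subunits I and III had authors' log2 fold changes of only -0.05 and 0.006, at 3691651 and 942846 reads in Madoi. The share of all assembled genes at this FDR was not counted. These p-values compare 2 single libraries.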

How the data were processed

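Total RNA was extracted with the SV Total RNA Isolation System and made into standard Illumina libraries, per the labels' protocols. Trinity and BLAST were used by the authors, as the design text of the series states. Which aligner, counting tool and statistical test they used is not given in the sources used here. Expected counts, as the authors deposited them, give an estimate of reads for every assembled gene. The RPKM values deposited by the authors equal count per length less 74 bases and per 1.06 (Madoi) or 1.05 (Maqu) times the listed total, to within 1% for all 1748 single-transcript genes with over 2000 reads in each library. The log2 fold changes, the p-values and the FDR were taken over unchanged from the authors' deposited table. Columns of other samples numbered 0.

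Counts were rounded and scaled by TMM (edgeR 4.0.16; factors 0.983 for Madoi and 1.02 for Maqu). Log2 ratios used a pseudocount of 0.5 reads. A name was called at 10 reads or more summed over both libraries, at least 2-fold, with the 95% Clopper-Pearson interval excluding equality. Reads are not independent molecules, so intervals and the limit of 3 counts (0.0479 CPM in Madoi, 0.0444 in Maqu) cover counting error only. Copies under 1 annotation text were summed, without those at 0 reads in Maqu. Close paralogs under 1 text cannot be told apart. Scarcely read copies were those with estimated reads above 0 in Maqu and a ratio of at least 5. Values in full were given for the mitochondrially encoded names, complex II, cytochrome c and the 3 highest and 3 lowest of complexes III to V. Members, lists and rules were chosen with earlier results of these data known, and the listed genes were paired by hand with annotation texts. The calls were tested on simulated data that held counting error only, the same error the intervals assume. This cannot cover differences between animals or tissue proportions. Other settings were library totals, DESeq2 1.42.0 size factors, other count filters, other sets of copies, a pseudocount of 5 reads, RPKM, a 4-fold threshold and no interval.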

Additional observations from a re-analysis of the deposited data

How the results depend on the processing

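The counts of subunits called higher and lower were both 0 under the settings tried, except with all copies summed, where 1 was called higher (ATPase gamma). Over all alternatives, the lowest and highest median were -0.02 and 0.10 for complex II, 0.05 and 0.22 for complex III, 0.09 and 0.19 for complex IV, and 0.15 and 0.32 for complex V. They were 0.12 and 0.23 for nuclear and -0.03 and 0.03 for mitochondrially encoded subunits, each within the interval or range given with its median. Scaling by library totals lowered every ratio by 0.05 and DESeq2 size factors raised it by 0.01, so the small medians of complex II and of the mitochondrially encoded subunits have no firm sign. The binomial intervals of the medians of complex III (-0.44 to 0.40) and complex V (-0.02 to 0.47) held 0. That of complex IV began at 0.04, the ratio of subunit VIa, which was -0.01 by library totals. These intervals rest on the spread among names, which are not replicates, so they give no median a firm sign. Of the 44 names, 3 changed sign by library totals (subunits I and VIa of complex IV and core subunit 1), 6 with all copies summed, and 1, subunit VIIa, with the scarcely read copies left out or with the highest copy alone. RPKM in place of counts, the count filters and the pseudocount changed no sign. No paired analysis was possible because each population has 1 library. Depth limits mainly the copies with few reads, such as the short copy of ATPase subunit b with 8 reads in Madoi against 34 in Maqu, whose interval ran from -3.30 to -0.84.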

Other observations

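In the authors' deposited table the mark of significance followed the unadjusted p-value. All 6098 marked assembled genes had a p of at most 0.05 and a log2 fold change of at least 1 in size, 0 genes meeting both were left unmarked, and 4703 of the marked genes had an FDR over 0.05, up to 0.441. Among the respiratory members this held for 7 of the 42 marked copies, all with 0 reads in Maqu.

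The lowest and highest nuclear names of complex I lay further out than those of complexes II to V. NADH dehydrogenase (ubiquinone) 1 beta subcomplex 6, an accessory subunit of the membrane arm, had 1018 reads in Madoi against 2935 in Maqu without its copy at 0 in Maqu, a log2 ratio of -1.42. The alpha subcomplex 3 subunit had 4924 reads in Madoi against 2652 in Maqu, just past 2-fold higher, with a counting interval of the log2 ratio from 0.93 to 1.07. The difference between complexes was not tested.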
